A study of Mus musculus with 6 samples.

Results

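Glycogen, glycolysis and lactate genes were followed in mouse gastrocnemius, a calf muscle in which fast fibres prevail. The set held 39 genes picked by name, with earlier results of these data known. All 39 were found among the 25344 genes of the deposited table. They cover glycogen synthesis (6 genes), glycogen breakdown (7), the making of hexose phosphates (3), phosphofructokinase and its regulators (8), the steps between triose phosphate and pyruvate (8), the glycerol phosphate shuttle (2) and the handling of lactate (5).

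Muscle RNA was sequenced in 3 libraries of HSA-NRTN mice and 3 libraries of wild-type (WT) littermates. HSA-NRTN mice carry a neurturin (NRTN) transgene under the human alpha-skeletal actin promoter, a promoter of skeletal muscle fibres, so the added neurturin is made by the fibres themselves. Neurturin is a secreted neurotrophic factor of the GDNF family. The labels give neither the age or number of the animals, nor whether a library came from 1 animal or from a pool. The p-values therefore measure the spread between these libraries.

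Skeletal muscle stores glucose as glycogen. Glycogen phosphorylase, which is switched on by phosphorylase kinase during contraction, frees glucose 1-phosphate, and glycolysis turns it into pyruvate with phosphofructokinase as its main control point. Fast glycolytic fibres then make lactate with the A subunit of lactate dehydrogenase and export it, while oxidative fibres and the heart hold more of the B subunit and take lactate up. Many of these enzymes have a muscle form and other forms that are shared with most cell types.

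Values are FPKM, a level that corrects reads for gene length and for the library's total, and are given for libraries 1, 2 and 3 of a group in that order. Reads in genes numbered 28580513 to 50291845 in HSA-NRTN libraries and 27418154 to 35243260 in WT libraries. The 10 most abundant genes took 18.4% to 20.7% of them in HSA-NRTN libraries and 22.6% to 23.7% in WT libraries. Dividing by the authors' size factors in place of library totals lowered the HSA-NRTN to WT changes of the 39 members by 0.18 to 0.30 on the log2(FPKM + 1) scale, least for genes of low level, and the median change of all 10755 genes tested was 0.18 with library totals and -0.054 with size factors. Nrtn itself read 178, 201 and 169 FPKM in HSA-NRTN libraries and 3.21, 1.70 and 4.33 FPKM in WT libraries, which fits the labels of all 6.

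More of these genes were lower than higher in HSA-NRTN muscle, and those that were higher were mostly forms other than the main ones of fast muscle. With limma on log2(FPKM + 1) and an adjusted p under 0.05 over all genes tested, 21 of the 39 were called lower, 15 higher and 3 neither (Ppp1r3c, Pgam2 and Bsg). Over all genes tested the same test called 11.7% lower and 41.6% higher. With the size factors 24 members were lower and 12 higher, against 29.9% and 21.1% of all genes. The calls that held under both scalings were 21 lower and 12 higher, and no member changed sign. A count-based fit, limma-voom on the recovered reads, called 24 members lower and 13 higher, against 30.7% and 21.9% of all genes. By the authors' deposited table, 24 were lower and 12 higher at an adjusted p under 0.05, against 17.8% and 18.0% of the 18953 genes with an adjusted p.

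The median change of the 39 was -0.29 log2 with library totals and -0.59 with size factors, which is 0.47 and 0.53 below the median of all genes. Of the 39, 24 lay below that median under each scaling. FPKM did not overlap between the groups for 38 members, 23 lower and 15 higher in HSA-NRTN, where 15.2% and 47.0% of all genes did so. Fewer fibres of a type and less RNA per fibre cannot be told apart in whole muscle.

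Abundance and direction went together. Among the 17 members with a mean over 100 FPKM, 11 were lower and 3 higher, or 14 and 1 with the size factors. Over all 292 genes above that level 26.0% were lower and 48.6% higher, or 37.7% and 28.1% with the size factors. Among the 8 members under 10 FPKM, 7 were higher and 1 lower under both scalings, while of the 7562 genes under that level 44.0% were higher and 7.45% lower, or 22.7% and 23.1% with size factors. Together the 39 genes took 2.76%, 2.62% and 2.73% of the reads in HSA-NRTN libraries and 3.83%, 3.88% and 3.65% in WT libraries, with no overlap.

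**Figure D1:**
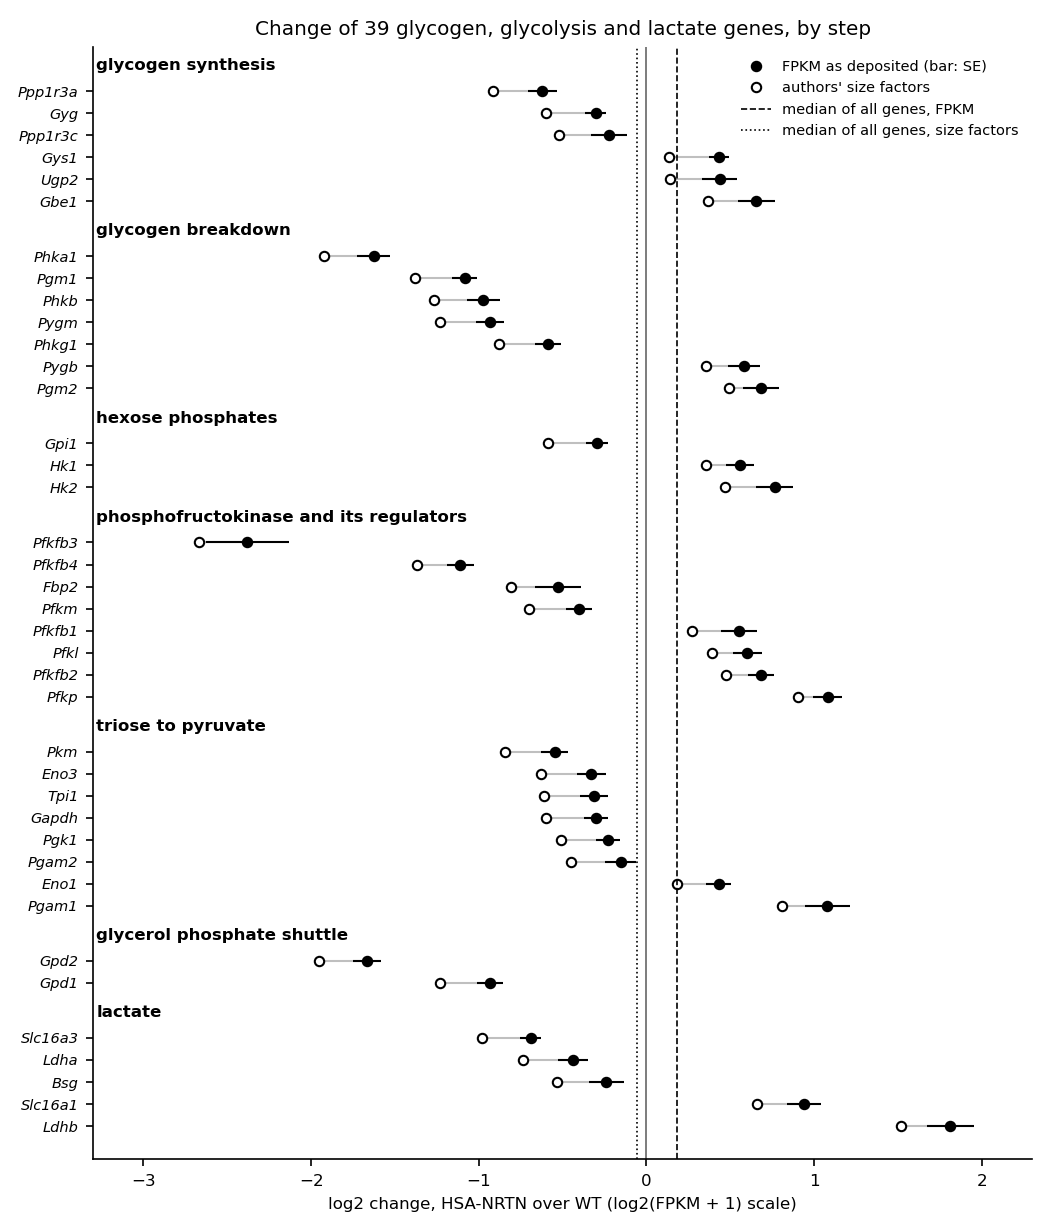
Log2 change (HSA-NRTN over WT) of each of the 39 genes, grouped by step; filled points with a bar (SE) use FPKM as deposited and open points the authors' size factors, with dashed and dotted lines at the 2 medians of all genes. Pfkfb3, Gpd2 and Phka1 lie farthest to the left, Ldhb farthest to the right, and every open point lies to the left of its filled point.

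Markers of some cell types also differed between the groups. Of 8 fast fibre genes, 7 were lower and 1, Myh1, higher under both scalings, and their summed level was 24572 to 26246 FPKM in HSA-NRTN libraries and 46049.7 to 51154 FPKM in WT libraries. Myh4, the myosin of the fastest glycolytic (2B) fibres, averaged 2635 ± 336 FPKM in HSA-NRTN and 8761 ± 859 FPKM in WT (SD, n = 3 each). Myh1, the myosin of 2X fibres, averaged 1829 ± 259.9 FPKM in HSA-NRTN and 621 ± 67.7 FPKM in WT.

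Of 6 slow fibre genes none was higher and 1, Myh7, was lower, or 3 lower (Myh7, Tnnc1 and Tnni1) with size factors. The call of Myh7 was lost with the replicate number as a block (adjusted p = 0.113, against 0.0446 without it). The slow fibre sums overlapped, at 137 to 191 FPKM in HSA-NRTN libraries and 98.8 to 309 FPKM in WT libraries. All 11 tested of 12 macrophage genes were higher under both scalings, with sums of 824 to 913 FPKM in HSA-NRTN libraries and 84.7 to 121 FPKM in WT libraries. Fibroblast genes summed to 437 to 536 FPKM in HSA-NRTN libraries and 254 to 289 FPKM in WT libraries, endothelial genes to 111 to 132 and 81.2 to 88.9 FPKM, and Schwann cell genes to 52.8 to 69.0 and 38.7 to 39.6 FPKM. Their calls depended in part on the scaling: 6 of 6 fibroblast genes were higher, or 5 with size factors, 7 of 8 endothelial genes, or 3, and 5 of 5 Schwann cell genes tested, or 3. Adipocyte genes summed to 155 to 317 FPKM in HSA-NRTN libraries and 59.3 to 78.8 FPKM in WT libraries, but most of this was Cfd (175 ± 71.5 FPKM in HSA-NRTN and 40.3 ± 12.1 FPKM in WT). Without Cfd the sums overlapped, at 34.0 to 60.9 FPKM in HSA-NRTN libraries and 22.7 to 38.0 FPKM in WT libraries. Of the 5, 4 were higher and none lower, or 2 higher and Lep lower with size factors. Red blood cell genes summed to 195 to 204 FPKM in HSA-NRTN libraries and 101 to 164 FPKM in WT libraries, and all 5 tested were higher. With size factors 0 of them were called, and the sums overlapped, at 171 to 193 in HSA-NRTN libraries and 114 to 179 in WT libraries. None of the markers was at 0 in all libraries. The part of fibre type or of these other cells in the results that follow was not tested.

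Glycogen synthesis genes were divided. Ugp2, whose product makes the UDP-glucose that feeds the chain, was the most abundant of the 6, at 425, 371 and 415 FPKM in HSA-NRTN libraries and 263, 297 and 337 FPKM in WT libraries. Gbe1, the branching enzyme, had 25.0, 25.7 and 25.2 FPKM in HSA-NRTN libraries and 13.0, 16.7 and 18.0 FPKM in WT libraries. Ppp1r3a, the muscle subunit that carries protein phosphatase 1 to glycogen, had 59.1, 50.3 and 59.0 FPKM in HSA-NRTN libraries and 80.9, 89.2 and 90.0 FPKM in WT libraries.

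The groups of libraries did not overlap for any of these 3 genes. Gbe1 was 1.60-fold higher in HSA-NRTN by the ratio of means (log2 change 0.65 ± 0.11 SE, adjusted p = 0.00168), and with size factors it was called at adjusted p = 0.0267. Ppp1r3a was 1.54-fold lower (-0.62 ± 0.09, adjusted p = 0.000635). Ugp2 was called higher with library totals (0.44 ± 0.10, adjusted p = 0.00854) but not with size factors (0.14, adjusted p = 0.359).

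Gys1, the muscle glycogen synthase, averaged 151 ± 1.70 FPKM in HSA-NRTN and 112 ± 1.40 FPKM in WT, and its call too ended with size factors (0.43 with library totals, 0.14 and adjusted p = 0.156 with size factors). Gyg, the protein primer on which glycogen starts, was lower under both scalings, at 134 ± 2.58 FPKM in HSA-NRTN and 165 ± 6.65 FPKM in WT. Ppp1r3c, another glycogen-targeting phosphatase subunit, averaged 141 ± 16.2 FPKM in HSA-NRTN and 165 ± 15.5 FPKM in WT and was not called (adjusted p = 0.106), though it was lower with size factors (-0.52, adjusted p = 0.0087). The summed level of the 6 genes overlapped, at 855 to 953 FPKM in HSA-NRTN libraries and 805 to 893 FPKM in WT libraries, and the order of the group means turned with size factors (823 in HSA-NRTN and 936 in WT), where the libraries still overlapped.

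Among the 7 glycogen breakdown genes the 5 that serve as the main forms of muscle fell and the 2 others rose, under both scalings. Over all genes tested 11.7% were lower and 41.6% higher, or 29.9% and 21.1% with size factors. Pygm, the muscle glycogen phosphorylase that cuts glucose units off the chain, had 1384, 1284 and 1380.4 FPKM in HSA-NRTN libraries and 2518, 2719.6 and 2492 FPKM in WT libraries. Phka1, the regulatory alpha subunit of phosphorylase kinase in muscle, had 65.9, 59.1 and 69.2 FPKM in HSA-NRTN libraries and 178, 220.3 and 209.6 FPKM in WT libraries. Pgm2, a phosphopentomutase related to phosphoglucomutase, had 2.32, 2.40 and 2.92 FPKM in HSA-NRTN libraries and 1.35, 0.942 and 1.34 FPKM in WT libraries.

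Each of these 3 genes separated the groups without overlap. Phka1 was 3.13-fold lower in HSA-NRTN (-1.63 ± 0.10, adjusted p = 9.8e-06) and stood at rank 33 from the bottom among the 10755 genes ordered by log2 change. Pygm was 1.91-fold lower (-0.93 ± 0.08, adjusted p = 6.01e-05), and Pgm2 2.10-fold higher (0.68 ± 0.11, adjusted p = 0.00113). Phka1 lies at chrX:102513975-102644246 and Pygm at chr19:6384399-6398459 (GRCm38).

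The subunits of phosphorylase kinase did not fall to the same degree. Phkb, the beta subunit, was 1.99-fold lower, at 45.8 ± 3.64 FPKM in HSA-NRTN and 91.0 ± 9.64 FPKM in WT. Phkg1, the catalytic gamma subunit of muscle, was 1.51-fold lower, at 59.0 ± 0.861 FPKM in HSA-NRTN and 89.3 ± 7.38 FPKM in WT. Whether the 3 subunits differ in their change was not tested. Pgm1, which turns glucose 1-phosphate into glucose 6-phosphate, was 2.13-fold lower, at 245 ± 6.53 FPKM in HSA-NRTN and 520.0 ± 31.7 FPKM in WT.

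Pygb, the brain form of phosphorylase, was 1.70-fold higher, at 4.29 ± 0.519 FPKM in HSA-NRTN and 2.53 ± 0.243 FPKM in WT, yet it made up only 0.319% of the summed FPKM of Pygm and Pygb in HSA-NRTN and 0.0983% in WT. The 7 breakdown genes, Pgm1 and Pgm2 among them, took 0.621% of reads in HSA-NRTN and 1.23% in WT. The 6 synthesis genes took 0.319% and 0.298%. With size factors, summed levels averaged 1599 in HSA-NRTN and 3865 in WT for breakdown, and 823 and 936 for synthesis, where libraries overlapped. Read counts of Pgm1 are less certain where its exons overlap those of Itgb3bp on the other strand (13.6% of its exon bases). The same holds for Phkg1 and Sumf2 (9.68%), because the sources used here do not say whether strand was used in counting. Other members had such overlaps too, among them Gpd1 (13.0%) and Gpi1 (11.5%) with genes on the other strand. Pkm (15.3%) and Pfkm (10.2%) overlapped genes on the same strand.

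**Figure D2:**
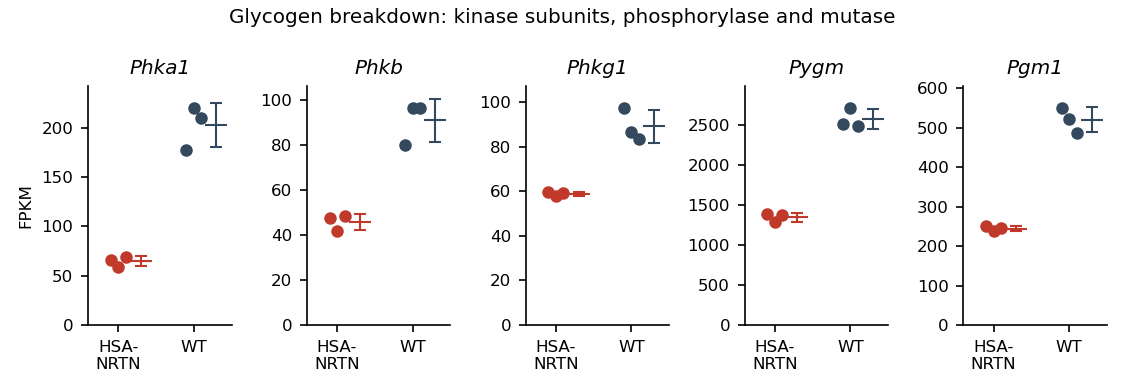
FPKM of 5 glycogen breakdown genes in each library (points) with the mean and SD of each group beside them, HSA-NRTN left and WT right. In every panel all 3 HSA-NRTN libraries lie below all 3 WT libraries, and the ratio between group means is largest for Phka1 (64.7 FPKM in HSA-NRTN, 203 FPKM in WT).

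Hexokinases, which trap glucose taken up from blood as glucose 6-phosphate, rose. Hk2, the insulin-responsive form of muscle, had 98.3, 114 and 121 FPKM in HSA-NRTN libraries and 60.4, 60.2 and 74.7 FPKM in WT libraries. Hk1, the form found in most tissues, had 2.48, 2.80 and 2.91 FPKM in HSA-NRTN libraries and 1.71, 1.44 and 1.46 FPKM in WT libraries. Gpi1, which converts glucose 6-phosphate to fructose 6-phosphate, had 91.5, 91.4 and 92.8 FPKM in HSA-NRTN libraries and 109, 119.9 and 110.3 FPKM in WT libraries.

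None of the 3 genes overlapped between groups, and all 3 calls held under both scalings. Hk2 was 1.71-fold higher in HSA-NRTN (0.77 ± 0.11, adjusted p = 0.000795) and Hk1 1.78-fold higher (0.56 ± 0.08, adjusted p = 0.000909). Gpi1 fell by 0.29 log2 (adjusted p = 0.00679). The ratio of Hk2 to Hk1 was 39.6, 40.8 and 41.6 in HSA-NRTN libraries and 35.4, 41.9 and 51.0 in WT libraries. These ranges overlap, and the log2 difference was -0.056 (exact two-sided permutation test, p = 0.7, adjusted over the 4 pairs tested 0.7). With 3 libraries a group this test cannot give a p under 0.1 for any pair.

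Phosphofructokinase and the enzymes that set its activator were divided by form. Pfkm, the muscle subunit, had 1058, 995 and 1028 FPKM in HSA-NRTN libraries and 1339, 1436 and 1298 FPKM in WT libraries. Pfkl, the liver subunit, had 3.37, 3.35 and 3.37 FPKM in HSA-NRTN libraries and 1.76, 1.69 and 2.20 FPKM in WT libraries. Pfkp, the platelet subunit, had 2.72, 2.90 and 2.88 FPKM in HSA-NRTN libraries and 0.724, 0.714 and 1.00 FPKM in WT libraries.

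All 3 subunits separated the groups: Pfkm was 1.32-fold lower in HSA-NRTN (-0.40 ± 0.08, adjusted p = 0.00318), Pfkl 1.78-fold higher (0.60 ± 0.09, adjusted p = 0.00073) and Pfkp 3.48-fold higher (1.08 ± 0.09, adjusted p = 4.08e-05). Even so, Pfkm supplied 99.4% of the summed FPKM of the 3 in HSA-NRTN and 99.8% in WT. The ratio of Pfkm to Pfkl was 314, 297 and 305 in HSA-NRTN libraries and 759, 849 and 589 in WT libraries. The log2 difference was -1.25, with p = 0.1 by the exact two-sided permutation test, the smallest p that 3 against 3 libraries can give (adjusted over the 4 pairs 0.133).

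The 6-phosphofructo-2-kinase/fructose-2,6-bisphosphatase genes make and remove fructose 2,6-bisphosphate, the strongest activator of phosphofructokinase. Pfkfb3, the form with the highest kinase activity relative to its phosphatase activity, had 25.0, 15.4 and 11.5 FPKM in HSA-NRTN libraries and 73.8, 94.0 and 105 FPKM in WT libraries. The highest HSA-NRTN library was far below the lowest WT library. Pfkfb3 was 5.25-fold lower in HSA-NRTN (-2.38 ± 0.25, adjusted p = 0.000149), rank 12 from the bottom of all genes tested, although its libraries spread more than those of most members. It lies at chr2:11471433-11554077.

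Its relatives did not move as a block. Pfkfb4 was 2.42-fold lower, at 4.41 ± 0.367 FPKM in HSA-NRTN and 10.7 ± 0.605 FPKM in WT. Pfkfb2, the heart form, was 1.97-fold higher, at 3.29 ± 0.165 FPKM in HSA-NRTN and 1.67 ± 0.124 FPKM in WT. Pfkfb1, the liver and muscle form, averaged 18.2 ± 2.33 FPKM in HSA-NRTN and 12.0 ± 1.30 FPKM in WT and was called higher with library totals (adjusted p = 0.00342) but not with size factors (adjusted p = 0.0525).

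Pfkfb3 thus supplied 50.7%, 34.8% and 32.0% of the family's summed FPKM in HSA-NRTN libraries and 75.8%, 79.5% and 80.5% in WT libraries. Pfkfb1 supplied 42.7% ± 7.72 in HSA-NRTN and 10.5% ± 0.406 in WT (SD, n = 3 each). The family as a whole summed to 43.1 ± 6.78 FPKM in HSA-NRTN and 115 ± 16.4 FPKM in WT. Fbp2, the muscle fructose bisphosphatase that opposes phosphofructokinase, was 1.45-fold lower, at 16.5 ± 3.38 FPKM in HSA-NRTN and 23.8 ± 1.60 FPKM in WT. The exons of Pfkfb2 overlap those of Gm29427 on the same strand over 17.4% of their bases, so its level is less certain.

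**Figure D3:**
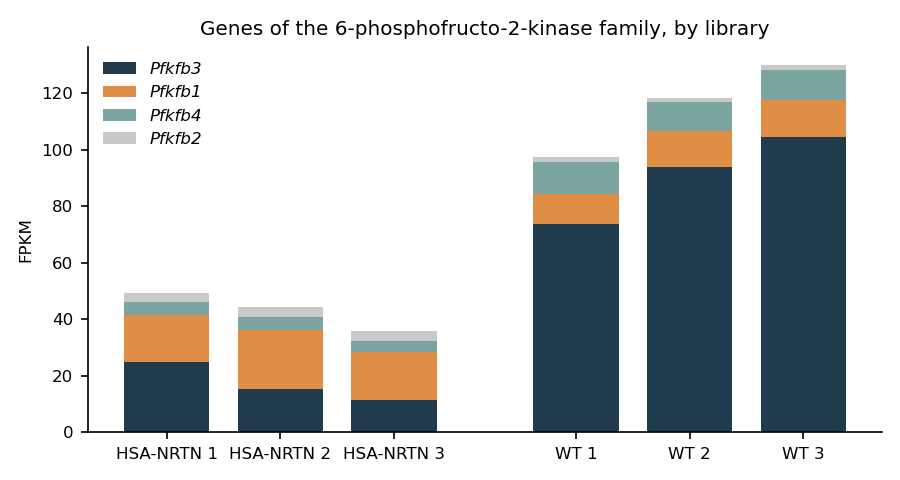
FPKM of the 4 genes of the 6-phosphofructo-2-kinase family stacked for each library, HSA-NRTN libraries left and WT libraries right. The dark Pfkfb3 segment shrinks to 11.5 to 25.0 FPKM in HSA-NRTN libraries, against 73.8 to 105 FPKM in WT libraries, while the Pfkfb1 segment is taller in HSA-NRTN.

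Most genes of the lower part of glycolysis fell, by smaller amounts with library totals than with size factors. Of 8 genes between triose phosphate and pyruvate, 5 were lower and 2 higher, against 11.7% and 41.6% of all genes tested. With size factors 6 were lower and 2 higher, against 29.9% and 21.1% of all genes. Eno3, the muscle enolase and most abundant of all 39 genes, had 2549, 2509.6 and 2515 FPKM in HSA-NRTN libraries and 3390.4, 3203 and 2939 FPKM in WT libraries. Pkm, pyruvate kinase, had 337, 324 and 344 FPKM in HSA-NRTN libraries and 507, 516 and 449 FPKM in WT libraries. Pgam1, the phosphoglycerate mutase of most tissues, had 16.0, 15.6 and 16.5 FPKM in HSA-NRTN libraries and 8.11, 5.37 and 8.03 FPKM in WT libraries.

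No overlap between groups was seen in these 3 genes. Pkm was 1.46-fold lower in HSA-NRTN (-0.55 ± 0.08, adjusted p = 0.000787), Eno3 1.26-fold lower (-0.33 ± 0.09, adjusted p = 0.0128) and Pgam1 2.24-fold higher (1.08 ± 0.13, adjusted p = 0.00037). With size factors Pkm was 1.80-fold lower, Eno3 1.55-fold lower and Pgam1 1.83-fold higher. The files count genes, not transcripts, so the muscle and the embryonic splice forms of Pkm cannot be told apart.

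Tpi1, Gapdh and Pgk1, the enzymes of the intervening steps, fell by 0.31, 0.30 and 0.23 log2 (adjusted p = 0.0145, 0.00849 and 0.0285). Pgk1 lost its call without any of the 3 HSA-NRTN libraries or without WT library 1 or 2 (adjusted p = 0.0612 to 0.0946), Tpi1 without HSA-NRTN library 2 (0.0518) and Eno3 without HSA-NRTN library 3 (0.0557). All 3 kept their calls with size factors. Pgam2, the muscle mutase, averaged 1336 ± 5.31 FPKM in HSA-NRTN and 1492 ± 159.8 FPKM in WT and was not called (-0.15, adjusted p = 0.195), but it was lower with size factors (-0.45, adjusted p = 0.0111). Eno1, the enolase of most tissues, averaged 6.20 ± 0.198 FPKM in HSA-NRTN and 4.35 ± 0.319 FPKM in WT and was called higher (adjusted p = 0.00172), narrowly with size factors (adjusted p = 0.0491). With size factors Eno1 lost its call in 5 of the 6 fits that leave out a library, and the authors' deposited table does not call it (adjusted p = 0.112).

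Several of these levels are uncertain because near-identical copies exist elsewhere in the genome. Gapdh matched 77 other annotated genes, 73 of them pseudogenes, over at least 300 bases at 95% identity or more. The 69 copies in the table summed to 60.8 to 74.0 FPKM in HSA-NRTN libraries and 75.7 to 84.7 FPKM in WT libraries, close to the level of Gapdh itself (76.2 ± 1.26 FPKM in HSA-NRTN and 94.3 ± 6.66 FPKM in WT). Pgk1 matched 4 other genes and Eno1 and Ldha 3 each, while Pgam1, Pkm, Gpi1, Tpi1 and Ldhb matched 1 each. How reads that map to several places were treated is not given in the sources used here. Rankings by level, such as that of Eno3, and sums or read shares that include these genes are therefore uncertain too.

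The glycerol phosphate shuttle, which carries electrons of cytosolic NADH to the respiratory chain and is most active in fast glycolytic fibres, fell at both ends. Gpd1, the cytosolic enzyme, had 119, 115 and 118 FPKM in HSA-NRTN libraries and 246, 224 and 207 FPKM in WT libraries. Gpd2, the mitochondrial enzyme, had 12.6, 12.7 and 15.1 FPKM in HSA-NRTN libraries and 42.8, 46.8 and 45.1 FPKM in WT libraries. The libraries of the groups were far apart for both genes.

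Gpd2 was 3.33-fold lower in HSA-NRTN (-1.67 ± 0.09, adjusted p = 4.41e-06), rank 31 from the bottom of all genes tested, and Gpd1 was 1.92-fold lower (-0.93 ± 0.08, adjusted p = 5.31e-05). Gpd2 lies at chr2:57237635-57370719. The mitochondrial enzyme fell relative to the cytosolic one: the ratio of Gpd1 to Gpd2 was 9.47, 9.05 and 7.79 in HSA-NRTN libraries and 5.76, 4.78 and 4.59 in WT libraries. This ratio was chosen after its values were seen and was not tested.

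Lactate genes moved apart by form. Ldhb, the heart (B) subunit of lactate dehydrogenase, had 369.7, 358 and 346 FPKM in HSA-NRTN libraries and 82.0, 99.1 and 127 FPKM in WT libraries. Ldha, the muscle (A) subunit, had 561, 489 and 525 FPKM in HSA-NRTN libraries and 777, 683 and 674 FPKM in WT libraries. The groups did not overlap for either subunit, and they moved in opposite directions.

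Ldhb was 3.48-fold higher in HSA-NRTN (1.81 ± 0.14, adjusted p = 3.4e-05), or 2.84-fold with size factors. On the log2(FPKM + 1) scale it stood at rank 103 from the top of all genes tested and was the largest rise among the 39. That scale understates changes of low genes, and by the ratio of means Pfkp rose about as much (3.48-fold, 2.83-fold with size factors). Ldha was 1.35-fold lower (-0.44 ± 0.09, adjusted p = 0.00416). The ratio of Ldha to Ldhb was 1.52, 1.37 and 1.52 in HSA-NRTN libraries and 9.48, 6.89 and 5.31 in WT libraries. Being taken within a library, this ratio does not depend on the scaling between libraries. Its log2 difference was -2.26 (exact two-sided permutation p = 0.1, the smallest possible, adjusted 0.133).

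Put as a share, Ldhb supplied 40.6% ± 1.46 of the summed FPKM of both subunits in HSA-NRTN and 12.7% ± 3.15 in WT (SD, n = 3 each). The sum itself was 883 ± 43.5 FPKM in HSA-NRTN and 814 ± 40.3 FPKM in WT, with libraries of 847 to 931 and 782 to 859 FPKM that overlapped. With size factors the order of the means turned (798 ± 73.4 in HSA-NRTN and 902 ± 41.3 in WT) and the libraries still overlapped, so no direction is given for the sum.

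Slc16a1, which encodes MCT1, the high-affinity monocarboxylate transporter linked to lactate uptake, had 26.0, 23.7 and 27.4 FPKM in HSA-NRTN libraries and 12.7, 11.3 and 14.9 FPKM in WT libraries. Slc16a3, which encodes MCT4, the low-affinity transporter of glycolytic fibres linked to lactate export, had 36.8, 39.2 and 38.8 FPKM in HSA-NRTN libraries and 65.3, 60.8 and 61.0 FPKM in WT libraries. Again the groups did not overlap for either gene. Slc16a1 was 1.98-fold higher in HSA-NRTN (0.94 ± 0.10, adjusted p = 0.00019) and Slc16a3 1.63-fold lower (-0.69 ± 0.07, adjusted p = 9.06e-05), under both scalings.

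The ratio of Slc16a3 to Slc16a1 was 1.42, 1.65 and 1.41 in HSA-NRTN libraries and 5.12, 5.37 and 4.11 in WT libraries. The log2 difference was -1.70 (exact two-sided permutation p = 0.1, adjusted 0.133). Slc16a1 thus supplied 40.2% ± 2.13 of the summed FPKM of the pair in HSA-NRTN and 17.2% ± 2.08 in WT. The transporter sum did not overlap under either scaling, at 64.0 ± 1.93 FPKM in HSA-NRTN and 75.4 ± 2.96 FPKM in WT.

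Bsg, basigin, the partner that brings both transporters to the cell surface, averaged 205 ± 3.10 FPKM in HSA-NRTN and 244 ± 35.5 FPKM in WT. It was not called (-0.24, adjusted p = 0.0818) but was lower with size factors (-0.54, adjusted p = 0.00617). MCT1 is also made by cells other than muscle fibres, macrophages among them. The summed markers of macrophages, fibroblasts, endothelium and Schwann cells were all higher in every HSA-NRTN library, as given above. The part of any of these cells in the level of Slc16a1 was not tested.

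**Figure D4:**
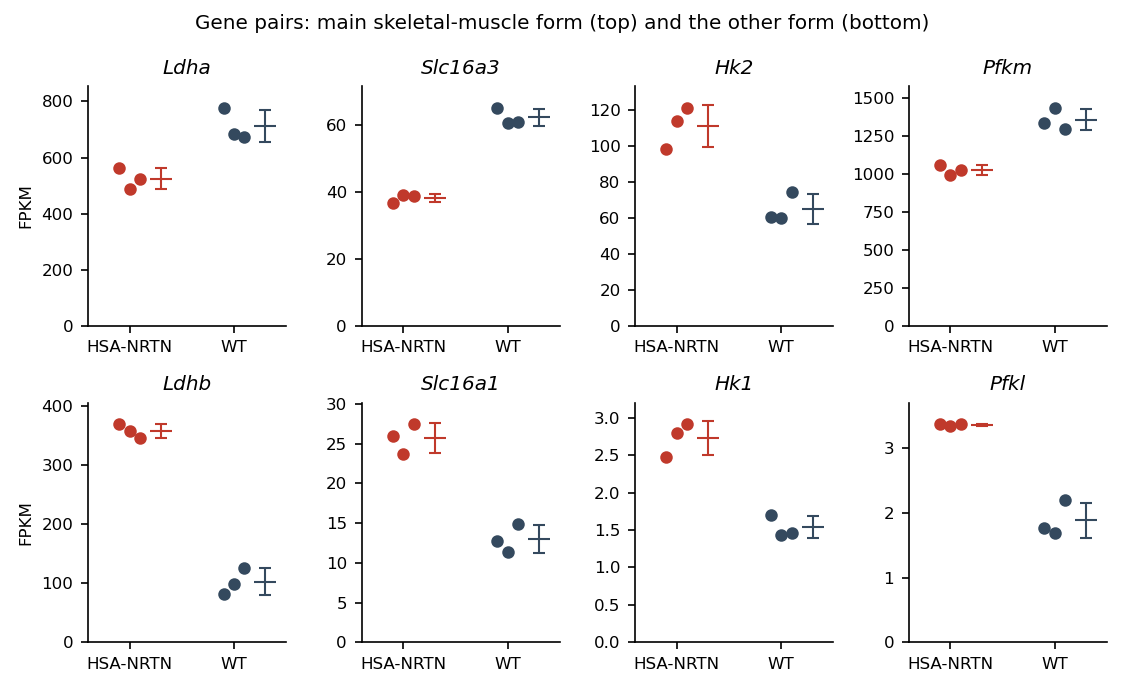
FPKM in each library (points) with group mean and SD for the 4 gene pairs, HSA-NRTN left and WT right in each panel, with the main form of skeletal muscle in the upper row and the other form in the lower row. Ldha, Slc16a3 and Pfkm are lower in HSA-NRTN while their partners are higher, whereas Hk2 and Hk1 are both higher (111 and 2.73 FPKM in HSA-NRTN, 65.1 and 1.54 FPKM in WT).

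**Figure D5:**
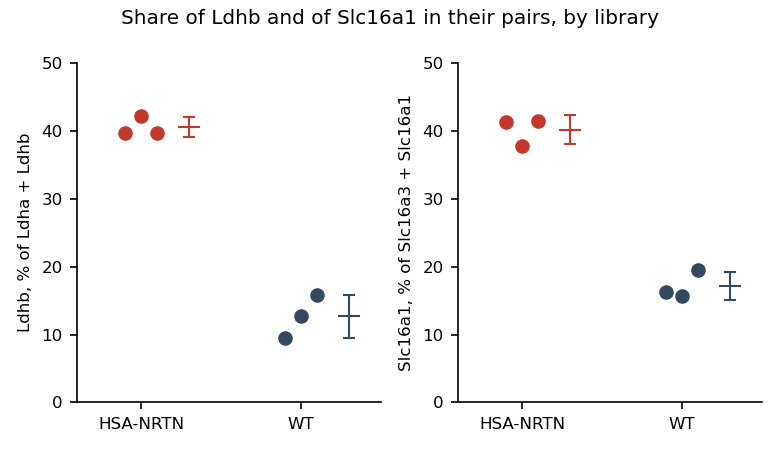
Share of Ldhb in the summed FPKM of Ldha and Ldhb (left) and of Slc16a1 in that of Slc16a3 and Slc16a1 (right), in percent, for each library with group mean and SD, HSA-NRTN left and WT right. Both shares are near 40% in HSA-NRTN (40.6% and 40.2%) and lie at 12.7% and 17.2% in WT.

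The sequences in front of these 4 genes are shown because the genes form 2 pairs that moved in opposite directions. Each is the 250 bases before a transcription start in RefSeq (GRCm38.p6), the first start listed for the gene, written 5′ to 3′ on the gene's strand: Ldhb chr6:142507958-142508207 (minus strand), Ldha chr7:46845554-46845803 (plus), Slc16a1 chr3:104638414-104638663 (plus) and Slc16a3 chr11:120948817-120949066 (plus). Capitals mark matches, on either strand, to ACGTG (the core bound by hypoxia-inducible factors, which is also contained in the CACGTG E-box), CAGCTG (an E-box of myogenic factors), AGGTCA (the half-site of many nuclear receptors) and TAAAAATA (found within MEF2 sites).
Ldhb: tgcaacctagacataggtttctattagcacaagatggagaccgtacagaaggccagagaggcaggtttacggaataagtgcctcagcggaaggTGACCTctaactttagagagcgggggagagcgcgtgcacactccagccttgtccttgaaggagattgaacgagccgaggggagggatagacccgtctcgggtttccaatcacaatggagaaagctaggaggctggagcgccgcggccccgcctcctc
Ldha: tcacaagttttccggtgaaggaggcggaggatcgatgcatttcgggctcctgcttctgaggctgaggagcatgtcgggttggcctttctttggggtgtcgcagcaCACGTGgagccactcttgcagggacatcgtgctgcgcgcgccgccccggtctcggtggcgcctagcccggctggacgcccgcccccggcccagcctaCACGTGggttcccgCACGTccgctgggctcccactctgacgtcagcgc
Slc16a1: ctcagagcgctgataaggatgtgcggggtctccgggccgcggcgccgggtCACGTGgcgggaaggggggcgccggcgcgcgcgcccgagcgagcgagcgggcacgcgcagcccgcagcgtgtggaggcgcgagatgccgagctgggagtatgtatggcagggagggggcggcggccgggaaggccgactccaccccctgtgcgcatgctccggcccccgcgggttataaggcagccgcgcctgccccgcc
Slc16a3: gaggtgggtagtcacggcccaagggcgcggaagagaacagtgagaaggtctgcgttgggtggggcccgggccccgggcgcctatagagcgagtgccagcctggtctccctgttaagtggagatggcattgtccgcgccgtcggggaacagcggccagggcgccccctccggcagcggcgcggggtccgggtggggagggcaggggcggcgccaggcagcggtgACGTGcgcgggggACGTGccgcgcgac

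Ldha held 5 matches to ACGTG, 4 of them from 2 palindromic CACGTG sites that are counted once on each strand. Slc16a1 held 2, from 1 such site, and Slc16a3 held 2. Ldhb held no match to ACGTG and 1 to AGGTCA. The GC content was 56.4% for Ldhb, 67.2% for Ldha, 76.4% for Slc16a1 and 73.6% for Slc16a3. A match is a run of letters, not a bound site, and a missing match says only that these letters are not in this window.

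Of the 39 genes, 37 had RefSeq windows, 53 in all since some genes have several starts. ACGTG was present in 41.2% of the 17 windows of members that were higher under both scalings, in 44.4% of the 27 windows of members that were lower under both, and in 16.6% of 32851 windows of all genes. CAGCTG was present in 5.88%, 22.2% and 13.0% of these windows in the same order, AGGTCA in 11.8%, 11.1% and 14.0%, and TAAAAATA in 0%, 0% and 2.45%. Mean GC content was 60.7%, 57.7% and 53.2%. Windows of 1 gene can overlap, and no test was run on these shares.

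Other genes of the same pathways were read from a list of 40 symbols, which the table gives as 41 genes because Aldoa stands under 2 identifiers. Of the 27 with a mean of at least 1 FPKM, 15 were lower and 6 higher, against 11.7% and 41.6% of all genes tested. With size factors 18 were lower and 4 higher, against 29.9% and 21.1% of all genes. The median change of the 27 was -0.34 log2 (-0.62 with size factors). Slc37a4 and Calm3 were among the largest falls of the tested genes. Slc37a4, the transporter of glucose 6-phosphate into the endoplasmic reticulum, had 14.5, 12.5 and 11.2 FPKM in HSA-NRTN libraries and 51.9, 40.2 and 36.7 FPKM in WT libraries (-1.67, adjusted p = 4.35e-05). Calm3, a gene for calmodulin, which is also the delta subunit of phosphorylase kinase, averaged 57.2 ± 1.37 FPKM in HSA-NRTN and 131 ± 24.6 FPKM in WT (-1.17, adjusted p = 0.000144).

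Among the 27 genes tested, the largest called rises on the log2(FPKM + 1) scale were those of Emb, Pygl and Ldhd. Emb, embigin, a relative of basigin that also partners monocarboxylate transporters, averaged 2.05 ± 0.163 FPKM in HSA-NRTN and 0.372 ± 0.0666 FPKM in WT (1.15, adjusted p = 2.23e-05). Pygl, liver phosphorylase, averaged 2.54 ± 0.370 FPKM in HSA-NRTN and 0.961 ± 0.291 FPKM in WT (0.86, adjusted p = 0.000921). Ldhd, the mitochondrial dehydrogenase of D-lactate, averaged 14.5 ± 0.628 FPKM in HSA-NRTN and 8.14 ± 1.29 FPKM in WT (0.77, adjusted p = 0.000507). The calls of these 5 named genes held under both scalings, and the groups did not overlap for any of them.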

How the data were processed

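RNA of mouse gastrocnemius was sequenced in 3 HSA-NRTN and 3 WT libraries, grouped by their labels. The submitters' processing notes name the build GRCm38 and the tools Cufflinks, Cuffdiff, DESeq2, HISAT2 and HTSeq, with no settings or versions in the sources used here. The authors deposited 1 table with a value per gene and library. Its header names no unit; from the values, what the authors deposited is FPKM scaled by library totals. Beside these it gave the authors' mean signal of each gene (reads divided by size factors), log2 fold changes, test score and p-values. Reads, recovered from these FPKM with that signal, were whole within 0.01 read for 100% of 127467 values, at a depth of 27418154 to 50291845 reads per library. Of 25319 genes matched to GENCODE M21 by identifier, 95.6% had the length of their annotated exons.

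The test was limma 3.58.1 (R 4.3.3) on log2(FPKM + 1) with a trend of variance on level, run over 10755 genes averaging 1 FPKM or more, without a block, with Benjamini-Hochberg adjustment over all of them. Adjusted p-values of genes come from it unless another setting or the authors' table is named; the log2 scale understates changes of low genes. Ratios of 4 gene pairs were tested by exact permutation. Genes given in every library were, in each step, the most abundant and the largest called rise and fall, and the pairs. Members, lists and tests were chosen with earlier results of these data known. The alternatives were size factors, another pseudocount, other filters, limma-voom on recovered reads, a replicate block and leaving out each library. Values of some other pathway genes are not reported here. The fits were tested on simulated data, with as many genes raised as lowered and no shift in scaling between groups built in. That test therefore does not bear on the choice of scaling.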

Additional observations from a re-analysis of the deposited data

How the results depend on the processing

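No member changed sign under any alternative run. The members called higher numbered 15 with library totals, and 9 with a minimum of 5 FPKM, where 33 members were tested. Leaving out each library in turn gave 15 higher each time and 19 to 22 lower; with the size factors (chosen after seeing the data) it gave 10 to 12 higher and 24 lower each time. There Gbe1 lost its call without any of the HSA-NRTN libraries (limma, adjusted p = 0.0581 to 0.0690), and Eno1 without any library but WT 1 (adjusted p = 0.0787 to 0.176). The median change of members was -0.59 with size factors and -0.59 with limma-voom, and -0.31 to -0.25 without each library; that of all genes was -0.054 and -0.068. Both follow from the scaling. Without a filter on low values Eno3 lost its call (adjusted p = 0.118). The log2 difference of the Hk2 to Hk1 ratio was 0.21 with 1 FPKM added and -0.18 to 0.079 without each library, so it has no settled sign. That of Pfkm to Pfkl was -1.002 with 1 FPKM added and -1.40 to -1.13 without each library, that of Ldha to Ldhb -2.46 to -2.04 and that of Slc16a3 to Slc16a1 -1.82 to -1.62. Replicate numbers did not pair the libraries (correlations of same-numbered deviations 0.08, -0.17 and 0.19). With the number as a replicate block 15 members were higher and 22 lower, Ppp1r3c being added (adjusted p = 0.0285), and the paired sign-flip p of the ratios was 0.25, the smallest possible, or 0.75 for Hk2 to Hk1. With 3 libraries a group the exact test cannot go below 0.1.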

Other observations

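Within the other pathway genes, some further subunits of phosphorylase kinase can be set beside its muscle subunits; the genes named here were chosen after their values were seen. Calm2, a gene for calmodulin, was called lower by limma, at 83.9 ± 7.41 FPKM in HSA-NRTN and 106 ± 6.32 FPKM in WT. Phkg2, the gamma subunit of liver, was called higher at 2.82 ± 0.224 FPKM in HSA-NRTN and 1.87 ± 0.0481 FPKM in WT, narrowly so with size factors (adjusted p = 0.0464) and not with limma-voom (adjusted p = 0.0547). Phka2, the alpha subunit of liver, averaged 2.00 ± 0.192 FPKM in HSA-NRTN and 1.39 ± 0.116 FPKM in WT, and its call ended with size factors (adjusted p = 0.169). Gaa, the lysosomal glucosidase that degrades glycogen, was lower at 39.8 ± 2.02 FPKM in HSA-NRTN and 61.8 ± 5.70 FPKM in WT.

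Aldoa, the muscle aldolase, was lower under its main identifier at 2759 ± 46.5 FPKM in HSA-NRTN and 4136 ± 402 FPKM in WT. Bpgm, which makes 2,3-bisphosphoglycerate, averaged 17.8 ± 2.11 FPKM in HSA-NRTN and 29.9 ± 1.32 FPKM in WT, and Tigar, a fructose 2,6-bisphosphatase, 30.3 ± 3.33 FPKM in HSA-NRTN and 44.9 ± 2.59 FPKM in WT. Both were called lower under both scalings.

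The split between muscle forms and other forms also showed in families that were not among the tested pairs, as ratios within each library chosen after the values were seen and not tested. Pgm1 to Pgm2 was 84.0 to 108 in HSA-NRTN libraries and 365 to 553 in WT libraries. Pygm to Pygb was 264 to 359 in HSA-NRTN libraries and 897 to 1149 in WT libraries, Pgam2 to Pgam1 80.6 to 85.5 and 169 to 271, Eno3 to Eno1 393 to 424 and 653 to 805, and Pfkm to Pfkp 343 to 388 and 1293 to 2009.6. The groups did not overlap in any of these 5 ratios.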
